A study of Mus musculus with 7 samples.

Results

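The 53 genes described here carry the response to broken or cross-linked DNA: the checkpoint kinases and their clamp, the mediator proteins that gather at breaks, the homologous recombination machinery, the Fanconi pathway and the end-joining factors. They were chosen by symbol from a list of such genes and not by a threshold on their values, though with earlier results of these data known, and all 53 were present among the 24015 gene symbols of the count table. Of these, 51 had enough counts to be tested and Fanca and Lig4 did not. The counts come from bulk RNA sequencing of haematopoietic stem cells (HSCs), taken from the bone marrow of C57BL/6 mice; the cells were sorted as LSK (lineage-negative, Sca-1+ and c-Kit+), CD150+ and CD48-. There were 3 libraries of HSCs labelled old (old 1 to old 3) and 4 of HSCs labelled young (young 1 to young 4) and the labels name no treatment or altered gene in either group. The only comparison is old against young HSCs. Ages, and whether a library stands for 1 mouse or several, are not in the labels, so p-values here reflect only how far these samples spread, which may be technical.

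Cells answer a double-strand break by having the kinases ATM and ATR signal it and hold the cell cycle, while the break is either rejoined directly by the Ku proteins and their ligase or copied from the sister chromatid by homologous recombination. The Fanconi pathway removes cross-links between DNA strands and hands the resulting break to recombination. Recombination needs a replicated chromatid, and many of its genes are transcribed mainly in S and G2 phase under E2F transcription factors, whereas end joining works throughout the cycle. Inherited loss of the Fanconi pathway leads to bone marrow failure, and adult HSCs are mostly out of cycle.

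The libraries held 22203806 to 32401925 counts. Levels are given as CPM, the usual scaling of counts to the library total, here after TMM normalization, and a count of 0 allowed a level of up to 0.0929 to 0.137 CPM (the worth of 3 counts, counting error only, since amplified reads are not independent molecules). Of 12 HSC marker genes, 11 were detected in every library and Fgd5 in all but young 2, with summed levels of 2621 to 2846 CPM in old and 1362 to 2356 CPM in young libraries. The markers did not move as 1 set: 7 had a log2 fold change above 0 and 5 below (Kit, Hlf, Ctnnal1, Gata2 and Tek). Means were 332.4 CPM in old and 49.7 in young for Procr, and 538.0 and 166.7 for Ly6a. Among markers of other cells, Ctsg, Cd3e, Ms4a1, Il7r, Csf1r, Hba-a1 and Hbb-b1 had no count in any library. Summed levels in old against young libraries were 632.1 to 887.9 against 415.1 to 564.7 CPM for 8 progenitor genes, 178.1 to 278.7 against 204.3 to 521.3 for 8 lymphoid genes, 878.3 to 1418 against 692.7 to 1278 for 7 myeloid genes and 7240 to 10224 against 4145 to 7183 for 8 erythroid genes. The myeloid sum was mostly Lyz2 (mean 1200 CPM in old and 909.4 in young) and the lymphoid sum mostly Cd79b and Nkg7. The progenitor sum was mostly Prtn3 (mean 644.6 CPM in old and 150.8 in young), whereas 4 of 5 tested progenitor genes had a log2 fold change below 0. Cd48 and Flt3 were at 0 in all 3 old libraries. In young libraries Cd48, whose protein the sort selected against, held 1.87 to 24.5 CPM and Flt3 held 0 to 36.2 CPM. The mean log2(CPM + 1) over the progenitor list was 2.09 to 2.59 in old and 2.93 to 3.48 in young libraries. The erythroid sum was mostly Car2 (mean 8313 CPM in old and 5165 in young), and 3 of 5 tested erythroid genes, Klf1, Epor and Tfrc, were below 0. The part of these genes in the results below was not tested. Young 1 stood apart from the other libraries on the first principal component (score 220.9 against -90.4 to 53.4). Young 2 stood apart on the second (score 196.9 against -80.2 to 24.3). These libraries also had the fewest genes with a count, 10576 in young 1 and 10815 in young 2 against 11401 to 12073 in the others.

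None of the 51 tested members passed the main test between old and young HSCs. With edgeR's quasi-likelihood test over all 11506 tested genes, 0 of 51 members were higher and 0 of 51 lower at an adjusted p under 0.05, where 0.235% of all tested genes were called higher and 0.0174% lower. In either direction 0.252% of genes were called. At an unadjusted p under 0.05, 4 members were lower (Xrcc3, Topbp1, Rbbp8 and Chek1) and 0 higher, that is 7.84% of the members against 9.12% of all tested genes (4.49% lower and 4.62% higher). DESeq2 called 3 members lower (Xrcc3, Topbp1 and Rbbp8) and 0 higher, where it called 2.61% of genes lower and 2.45% higher, and 4 members had an unadjusted p under 0.05 where 13% of genes did. With limma-voom, 0 members were called (background 0.426% higher and 0.00869% lower) and 4 had an unadjusted p under 0.05 (Xrcc3, Rbbp8, Rad54l and Topbp1; background 12.4%). Among the 11 members with a mean of 50 CPM or more, fitted with other genes of that level, 0 were called (background 1.75% higher and 1.13% lower). In 5 members (9.8%) the values of the groups did not overlap, against 12.7% of all tested genes. These were Xrcc3, Topbp1 and Rbbp8, lower in old (background 5.18%), and Xrcc2 and Palb2, higher in old (background 7.55%). Of the 51, 33 had a log2 fold change below 0 (64.7% of members, 51.5% of all tested genes) and their median was -0.41, against -0.029 over all tested genes. That median was -0.10 without young 4 and -0.67 without old 2, and -0.55, with 41 of 52 members below 0, with young 1 and young 2 both left out.

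**Figure D1:**
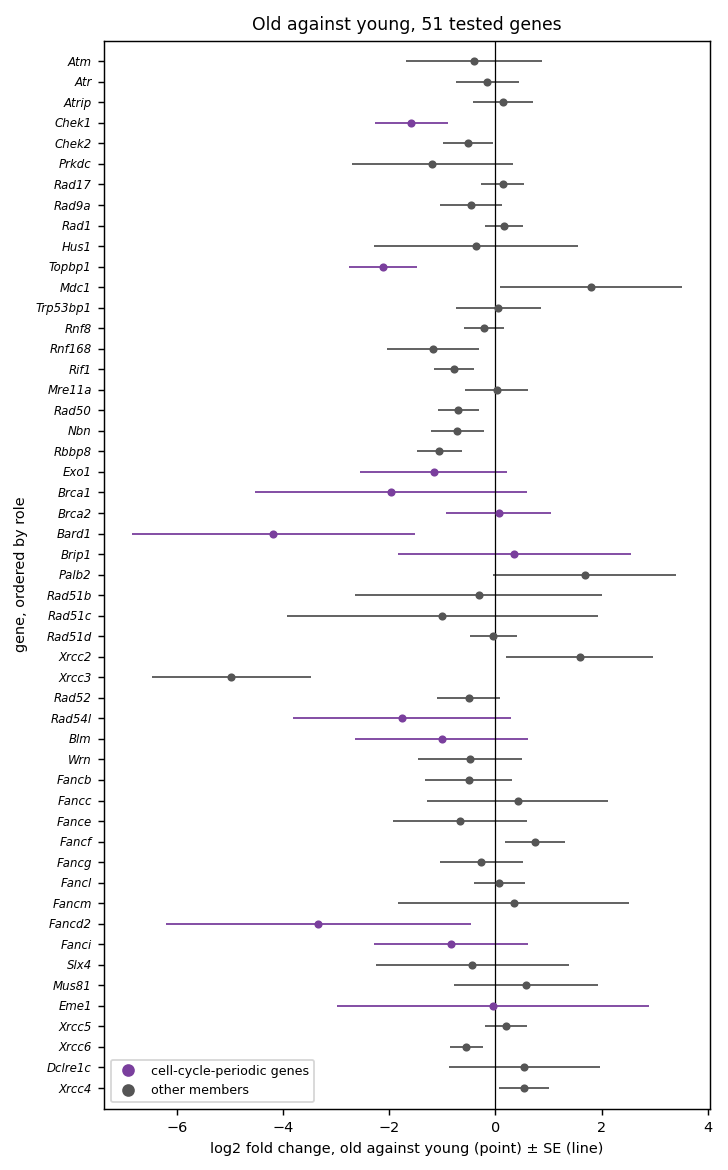
Log2 fold change of old against young HSCs (x axis, point) with its SE (line) for the 51 tested genes, ordered by role down the y axis; purple marks genes known to be transcribed periodically in the cell cycle. Most purple points lie left of 0, Xrcc3 lies farthest left in this fit, and many lines cross 0.

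Precision differed widely between the members. The SE of the log2 fold change was under 0.5 for 12 members and over 1 for 24, and a missed threshold in the latter group does not show that levels were alike. In counts simulated with the fitted spread of each tested gene, 1 of 50 genes was recovered at a 2-fold change, 13 of 50 at 4-fold and 22 of 50 at 16-fold. The changed genes were picked at random from all tested genes, so these rates are not those of the members. In bulk RNA, fewer cells with a transcript and less of it per cell cannot be told apart.

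Members known to be transcribed mainly in S and G2 phase were looked at apart from the others, and none passed the adjusted threshold in edgeR. Of 13 such members (Brca1, Brca2, Bard1, Brip1, Chek1, Rad54l, Blm, Exo1, Fanca, Fancd2, Fanci, Eme1 and Topbp1), 12 were tested, 10 had a log2 fold change below 0 and the median of the 12 was -1.38, with Brca2 and Brip1 above 0. Among the 12 the SE was over 1 except in Chek1, Topbp1 and Brca2. Eme1, counted as below 0, was at -0.047 ± 2.95 (SE). Of the 39 other tested members, 23 were below 0 and the median was -0.27. The difference between these medians was not tested. Members were assigned to the 13 by name with earlier results of these data known. Topbp1 and Chek1, among the members with the smallest p, are in that set, so the medians depend on the assignment. The mean log2(CPM + 1) of the 13 genes was 1.98, 3.07 and 1.34 in the old libraries and 2.28, 3.07, 4.04 and 3.74 in the young libraries, so old 2 lay within the range of the young libraries and the groups overlapped.

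Replication and mitosis genes had lower values in old HSCs beside them. All 18 genes of a replication list had a log2 fold change below 0 (median -1.63), 15 at an unadjusted p under 0.05 and 0 past the adjusted threshold. All 15 genes of a mitosis list were below 0 (median -1.91), 11 at an unadjusted p under 0.05 and 0 past the adjusted threshold. Over all tested genes 51.5% were below 0 and 4.49% were lower at an unadjusted p under 0.05 (edgeR). Both lists were chosen with earlier results of these data known. The smallest p of the replication list belonged to Cdc6, which loads the helicase, and to the helicase subunits Mcm5 and Mcm6 (log2 fold changes -2.20, -3.85 and -1.70; adjusted p = 0.138, 0.140 and 0.152, edgeR). In the mitosis list they were the kinase gene Cdk1, its cyclin Ccna2 and the topoisomerase Top2a (log2 fold changes -2.08, -2.49 and -2.93; adjusted p = 0.0760, 0.0918 and 0.138, edgeR). The mean log2(CPM + 1) of the replication genes was 5.34, 6.66 and 5.52 in the old libraries and 7.67, 7.41, 8.01 and 7.78 in the young libraries. These groups did not overlap. Among the old libraries, old 2 had the highest mean both for periodic repair genes and for replication. Young 3 was the highest young library for both but the lowest young one for mitosis genes (6.04). Young 1 had the lowest young mean of periodic repair genes (2.28) but lay above young 2 for replication. The part of these genes in the members' values was not tested.

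**Figure D2:**
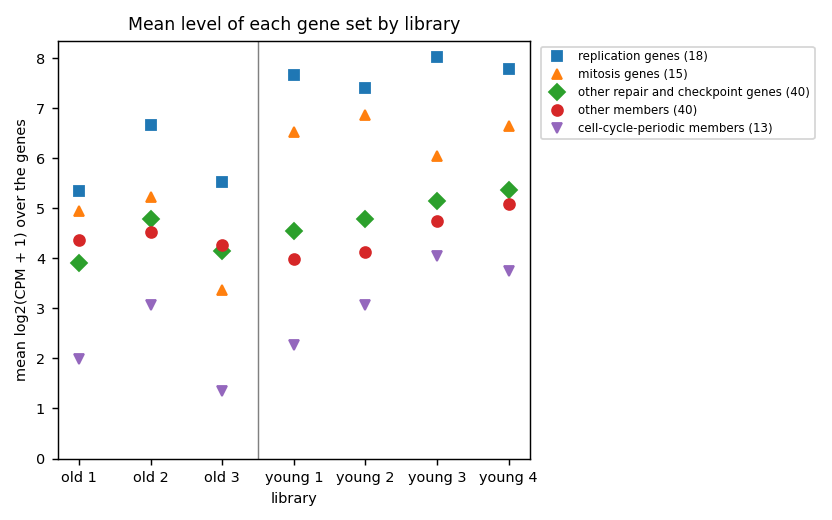
Mean log2(CPM + 1) over the genes of each set (y axis) in each of the 7 libraries (x axis). Replication and mitosis genes are lower in all 3 old libraries than in the 4 young ones, whereas the periodic members of the repair list overlap between the groups through old 2. The other members overlap too, with all 3 old libraries above young 1 and young 2 and below young 3 and young 4.

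Other genes of the same pathways, 40 chosen by name on the same list of functions, were counted as well. This list too was chosen with earlier results of these data known, so its counts are a description and not independent support. Of 38 tested, 28 had a log2 fold change below 0 (median -0.68), 6 were lower at an unadjusted p under 0.05 and 0 passed the adjusted threshold in edgeR. Over all tested genes, 51.5% were below 0 and 4.49% lower at an unadjusted p under 0.05 (edgeR). The 3 with the smallest p were Tipin, a fork protection factor, H2afx, the histone variant that ATM phosphorylates at breaks, and Rad51ap1, an accessory factor of homologous recombination. Tipin held 173.2, 246.4 and 140.6 CPM in old 1, old 2 and old 3, and 416.4, 594.2, 350.4 and 332.6 CPM in young 1, young 2, young 3 and young 4. H2afx was at 156.7, 136.1 and 87.7 CPM in the old libraries and at 262.2, 349.8, 211.4 and 270.4 CPM in the young. The CPM of Rad51ap1 were 29.3, 7.71 and 10.2 in old and 88.9, 125.3, 36.5 and 84.7 in young libraries. In each of these the groups did not overlap. The adjusted p-values (edgeR) were 0.175, 0.188 and 0.200, with log2 fold changes of -1.18, -1.11 and -2.41.

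Promoter stretches that hold a word bound by E2F factors are shown because E2F sites are known from many S-phase genes. RefSeq promoters (GRCm38.p6; the counts were made on mm9) were found for 42 of the 53 members. The 250 bases before the start were searched on both strands for TTTCCCGC, TTTCGCGC, TTTGCCGC and TTTGGCGC. A match was found in 7 of 42 members (16.7%) and in 2.16% of 27025 symbols with a promoter, which include non-coding genes. Among the members these were Bard1, Brca2, Chek2, Fancg, Mdc1, Topbp1 and Xrcc6, that is 3 of 11 periodic members and 4 of 31 others. The word TTTGAA, found in promoters of mitotic genes, was in 3 of 42 members (7.14%) and 18.3% of all symbols. Stretches of 5 members follow, 5′ to 3′ on the gene's strand, with the matched word in capitals; a match is a description of the letters, not a bound site.
Topbp1, chr9:103305178-103305225 on the plus strand: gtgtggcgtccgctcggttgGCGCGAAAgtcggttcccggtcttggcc
Bard1, chr1:71103154-71103201 on the minus strand: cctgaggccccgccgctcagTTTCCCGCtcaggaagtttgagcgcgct
Brca2, chr5:150522433-150522480 on the plus strand: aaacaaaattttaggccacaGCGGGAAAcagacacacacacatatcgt
Chek2, chr5:110839811-110839858 on the plus strand: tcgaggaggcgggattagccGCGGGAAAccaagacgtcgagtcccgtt
Mdc1, chr17:35841462-35841497 on the plus strand: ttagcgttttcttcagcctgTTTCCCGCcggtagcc
The word ended 121 bases before the start in Topbp1, 201 in Bard1, 160 in Brca2, 144 in Chek2 and 8 in Mdc1. Of these genes Topbp1 and Bard1 had log2 fold changes of -2.12 and -4.18, Brca2 and Chek2 of 0.061 and -0.51, and Mdc1 of 1.80, so members with the word were found on both sides of 0.

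The member with the log2 fold change farthest from 0 in the main edgeR fit was Xrcc3, which acts in a complex with Rad51c during homologous recombination. Old libraries had 0.0378, 3.62 and 0.346 CPM of Xrcc3, and young libraries 14.2, 39.5, 45.7 and 69.96 CPM. Every young library was higher than every old library. The mean was 1.34 ± 1.99 CPM in old (SD, n = 3) and 42.3 ± 22.9 CPM in young HSCs (SD, n = 4), 31.7-fold lower in old, a log2 fold change of -4.98 ± 1.49 (SE; adjusted p = 0.268, edgeR). DESeq2 gave an adjusted p of 0.00117 and a log2 fold change of -5.00, and limma-voom an adjusted p of 0.258. Xrcc3 was not the farthest from 0 in every fit: Rad54l was at -6.82 and Xrcc3 at -6.47 with limma-voom, and members left with 0 or 1 count in old HSCs lay farther from 0 without old 1 (Brca1 and Fancd2), old 2 (Rad54l, Rad51c and Eme1) or old 3 (Bard1). Without 1 library the edgeR log2 fold change lay between -7.78 and -4.41 and the adjusted p between 0.143 and 0.571. In the GENCODE annotation exonic bases of Xrcc3 lie over those of Klc1, a kinesin light chain gene on the opposite strand, and counts without strand could mix their reads. Klc1 held 29.6, 25.8 and 21.02 CPM in the old and 8.15, 34.9, 36.7 and 35.6 CPM in the young libraries, with groups that overlapped (log2 fold change -0.18, adjusted p = 0.986, edgeR).

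**Figure D3:**
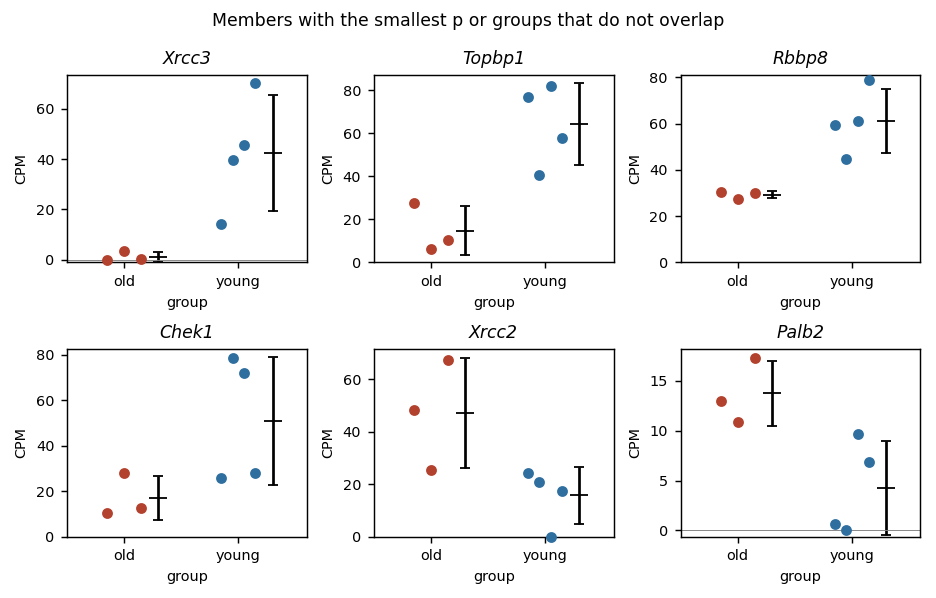
CPM in each old (red) and young (blue) library for the 4 members with the smallest p (Xrcc3, Topbp1, Rbbp8, Chek1) and the 2 that were higher without overlap (Xrcc2, Palb2); bars are mean ± SD. Xrcc3, Topbp1 and Rbbp8 are lower in every old library than in any young one, and the 4 Chek1 values of young HSCs form a high and a low pair.

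Xrcc2, of the same gene family, lay the other way. For Xrcc2 the levels were 48.5, 25.5 and 67.6 CPM (old) and 24.3, 21.004, 0 and 17.4 CPM (young). Young 3 had no count, and the highest young library was just under the lowest old one (log2 fold change 1.59 ± 1.38, adjusted p = 0.892, edgeR). The strand-annealing protein gene Rad52 overlapped between the groups. Rad52 measured 23.4, 36.1 and 24.8 CPM in old and 43.6, 24.2, 25.4 and 66.6 CPM in young HSCs. Its 2 highest values were both in young libraries (log2 fold change -0.51 ± 0.59, adjusted p = 0.936, edgeR). Rad54l held 0, 25.6 and 0 CPM in the old libraries and 9.11, 36.8, 47.4 and 22.1 CPM in the young. Rad54l encodes a motor protein that helps strand invasion of the template, and it was detected in every young library but only in old 2 among the old (log2 fold change -1.76 ± 2.05, adjusted p = 0.937, edgeR), where it held 826 counts. The remaining genes of the family were Rad51d, at 35.9 to 78.7 CPM in all 7 libraries (log2 fold change -0.041), and the sparse Rad51b (0 to 24.6 CPM) and Rad51c (0 to 15.2 CPM), which had no count in 2 and 4 libraries.

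The BRCA proteins act on resected DNA in homologous recombination, and their transcripts were scarce. Brca1 was at 8.84, 0 and 0.0384 CPM in the old libraries and at 10.8, 0, 2.56 and 32.8 CPM in the young. Brca1, a ubiquitin ligase and tumour suppressor, had 0 or 1 count in old 2, old 3 and young 2 and its highest value in young 4 (log2 fold change -1.96 ± 2.56, adjusted p = 0.948, edgeR). The CPM of Brca2 were 4.42, 30.9 and 17.5 in old and 4.95, 16.9, 31.1 and 14.5 in young libraries. Brca2, a tumour suppressor of the same pathway, showed no separation of the groups (log2 fold change 0.061 ± 0.99, adjusted p = 0.995, edgeR). Old libraries had 0, 0.0310 and 0.499 CPM of Bard1, and young libraries 3.24, 0.0457, 0.0361 and 9.82 CPM. Bard1, the partner of Brca1, was above 1 CPM in young 1 and young 4 alone (log2 fold change -4.18 ± 2.67, adjusted p = 0.773, edgeR). For Palb2 the levels were 13.03, 10.9 and 17.3 CPM (old) and 0.657, 0, 9.64 and 6.83 CPM (young). Palb2, which bridges the BRCA proteins, was higher in every old library than in any young one, with means of 13.8 ± 3.26 CPM in old (SD, n = 3) and 4.28 ± 4.72 CPM in young HSCs (SD, n = 4), but did not pass the test (log2 fold change 1.68 ± 1.73, adjusted p = 0.918, edgeR). Brip1 measured 0, 31.4 and 1.69 CPM in old and 0, 5.43, 17.2 and 11.8 CPM in young HSCs. Brip1, a helicase bound by Brca1, was spread over both groups without order (log2 fold change 0.36 ± 2.20, adjusted p = 0.991, edgeR).

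End resection trims the break to single-stranded DNA before recombination. Rbbp8, which encodes the resection factor CtIP, had the smallest SE of the members whose groups did not overlap. Rbbp8 held 30.2, 27.4 and 30.2 CPM in the old libraries and 59.3, 44.8, 61.2 and 78.7 CPM in the young. The mean was 29.2 ± 1.63 CPM in old (SD, n = 3) and 61.01 ± 13.9 CPM in young HSCs (SD, n = 4), 2.09-fold lower in old (log2 fold change -1.06 ± 0.42, adjusted p = 0.454, edgeR; DESeq2 adjusted p = 0.0471; limma-voom adjusted p = 0.345). Without 1 library its log2 fold change lay between -1.18 and -0.91. The MRE11 complex senses the break and opens resection. Rad50 was at 63.5, 73.02 and 47.4 CPM in the old libraries and at 49.3, 107.99, 129.7 and 110.4 CPM in the young. The CPM of Nbn were 48.9, 89.4 and 40.4 in old and 180.8, 46.6, 77.6 and 87.9 in young libraries. Rad50 and Nbn, its ATPase and its ATM-binding subunit, had lower means in old HSCs with overlapping groups (log2 fold change -0.70 ± 0.39, adjusted p = 0.685, edgeR; log2 fold change -0.72 ± 0.50, adjusted p = 0.815, edgeR). Mre11a, the nuclease of the complex, ranged over 16.9 to 44.8 CPM with a log2 fold change of 0.020. Old libraries had 28.02, 37.5 and 0 CPM of Exo1, and young libraries 34.5, 50.1, 54.9 and 56.3 CPM. Exo1, the long-range nuclease, had no count in old 3 and otherwise overlapped (log2 fold change -1.16 ± 1.38, adjusted p = 0.937, edgeR).

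Among the checkpoint clamp genes, Topbp1, the activator of ATR, separated the groups. For Topbp1 the levels were 27.7, 6.28 and 10.2 CPM (old) and 76.8, 40.4, 81.995 and 57.6 CPM (young). Every old library was lower than every young one. The mean was 14.7 ± 11.4 CPM in old (SD, n = 3) and 64.2 ± 19.04 CPM in young HSCs (SD, n = 4), 4.36-fold lower in old (log2 fold change -2.12 ± 0.64, adjusted p = 0.276, edgeR; DESeq2 adjusted p = 0.0151; limma-voom adjusted p = 0.219). Without 1 library the log2 fold change lay between -2.96 and -1.77. The clamp itself did not show this. Rad9a measured 62.1, 52.1 and 19.7 CPM in old and 33.3, 32.5, 94.7 and 86.4 CPM in young HSCs. Rad1 held 136.7, 117.6 and 153.8 CPM in the old libraries and 56.6, 131.1, 143.1 and 156.001 CPM in the young. Rad9a and Rad1, subunits of the clamp, overlapped between the groups (log2 fold change -0.47 ± 0.59, adjusted p = 0.945, edgeR; log2 fold change 0.16 ± 0.35, adjusted p = 0.977, edgeR). Rad17, which loads the clamp, was among the most even members at 38.5 to 59.3 CPM (log2 fold change 0.14 ± 0.40). Hus1 was at 43.96, 9.84 and 0.0384 CPM in the old libraries and at 0, 15.4, 30.3 and 46.7 CPM in the young. Hus1, another subunit of the clamp, was at or near 0 in old 3 and young 1 and had 9.84 to 46.7 CPM in the 5 other libraries.

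The kinases that signal damage overlapped between old and young HSCs. The CPM of Chek1 were 10.2, 27.9 and 12.7 in old and 25.5, 78.4, 71.7 and 27.8 in young libraries. Chek1, the kinase downstream of ATR, had means of 16.9 ± 9.54 CPM in old (SD, n = 3) and 50.9 ± 28.1 CPM in young HSCs (SD, n = 4), 3.003-fold lower in old (log2 fold change -1.59 ± 0.69, adjusted p = 0.524, edgeR; DESeq2 adjusted p = 0.160). Old 2 at 27.9 CPM was just above young 1 and young 4, and young 2 and young 3 were the high libraries. Old libraries had 64.1, 51.01 and 44.3 CPM of Chek2, and young libraries 120.2, 45.4, 39.3 and 98.1 CPM. Chek2, the kinase downstream of ATM, was highest in young 1 and young 4 (log2 fold change -0.51 ± 0.47, adjusted p = 0.902, edgeR). For Atm the levels were 26.97, 17.1 and 14.3 CPM (old) and 0.131, 24.2, 22.2 and 56.7 CPM (young). Atm held 3 counts in young 1 against 373 to 1629 in every other library (log2 fold change -0.41 ± 1.28, adjusted p = 0.985, edgeR), and its log2 fold change turned to 0.94 with limma-voom. Atr measured 25.7, 21.4 and 42.1 CPM in old and 26.6, 21.004, 41.6 and 42.7 CPM in young HSCs. Atr stayed within about the same range in both groups (log2 fold change -0.15 ± 0.59, adjusted p = 0.986, edgeR). Atrip held 59.03, 39.2 and 96.4 CPM in the old libraries and 77.7, 16.9, 71.2 and 68.9 CPM in the young. Atrip, the partner that brings ATR to single-stranded DNA, was lowest in young 2 (log2 fold change 0.14 ± 0.56, adjusted p = 0.986, edgeR); its exons overlap those of Trex1 on the same strand. Prkdc was at 0.680, 7.74 and 4.73 CPM in the old libraries and at 0.526, 20.8, 7.95 and 10.8 CPM in the young. Prkdc, the DNA-dependent kinase of end joining, was at 12 to 455 counts, with its highest value in young 2 (log2 fold change -1.19 ± 1.52, adjusted p = 0.946, edgeR).

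Mediator proteins at breaks also did not separate the groups. The CPM of Rif1 were 48.3, 100.7 and 54.1 in old and 133.4, 149.999, 71.8 and 111.4 in young libraries. Rif1, which shields ends from resection, was lower on average in old HSCs, with old 2 above young 3 (log2 fold change -0.78 ± 0.38, adjusted p = 0.612, edgeR). Old libraries had 56.8, 109.3 and 45.8 CPM of Rnf8, and young libraries 88.7, 64.3, 79.6 and 95.9 CPM. For Rnf168 the levels were 24.8, 4.95 and 8.18 CPM (old) and 21.1, 14.3, 33.4 and 45.1 CPM (young). The ubiquitin ligases Rnf8 and Rnf168, which mark chromatin around breaks, had overlapping groups (log2 fold change -0.22 ± 0.38, adjusted p = 0.972, edgeR; log2 fold change -1.17 ± 0.87, adjusted p = 0.842, edgeR). Mdc1 measured 5.74, 17.7 and 15.1 CPM in old and 7.10, 0, 6.54 and 1.11 CPM in young HSCs. Mdc1, the scaffold that binds phosphorylated histone H2AX, had its 2 highest values in old 2 and old 3 and no count in young 2 (log2 fold change 1.80 ± 1.72, adjusted p = 0.908, edgeR). Trp53bp1, which favours end joining, ranged over 8.31 to 44.9 CPM with a log2 fold change of 0.057.

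The Fanconi genes gave no direction in common. The core complex puts ubiquitin on the pair Fancd2 and Fanci. Of its 7 tested genes 3 had a log2 fold change below 0 and 4 above, and the median was 0.07. Fancf held 21.04, 53.4 and 64.7 CPM in the old libraries and 27.03, 30.5, 32.6 and 20.02 CPM in the young. Fancf, an adaptor of the complex, was highest in old 2 and old 3 and overlapped through old 1 (log2 fold change 0.75 ± 0.57, adjusted p = 0.846, edgeR). Fancl, the ubiquitin ligase, ranged over 28.7 to 68.96 CPM (log2 fold change 0.073), Fancg over 9.89 to 30.9 CPM (-0.27), Fancb over 7.03 to 37.4 CPM (-0.50) and Fance over 2.05 to 46.4 CPM (-0.67). Fancc had no count in young 2 and reached 26.5 CPM in young 4, and Fancm, the translocase that anchors the complex, had no count in old 3 and reached 19.0 CPM in old 1. Fanca had 0 counts in all 3 old libraries and in young 2, and 1, 20 and 34 counts in young 1, young 3 and young 4, too few to test. Fancd2 was at 1.93, 0 and 0 CPM in the old libraries and at 0.350, 0, 13.3 and 12.6 CPM in the young. Fancd2 had counts in old 1 alone among the old libraries, and young 3 and young 4 were highest (log2 fold change -3.34 ± 2.88, adjusted p = 0.891, edgeR). The CPM of Fanci were 3.66, 16.4 and 0.845 in old and 1.58, 25.1, 19.4 and 3.55 in young libraries. Fanci had counts in every library and its groups overlapped (log2 fold change -0.83 ± 1.45, adjusted p = 0.972, edgeR).

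**Figure D4:**
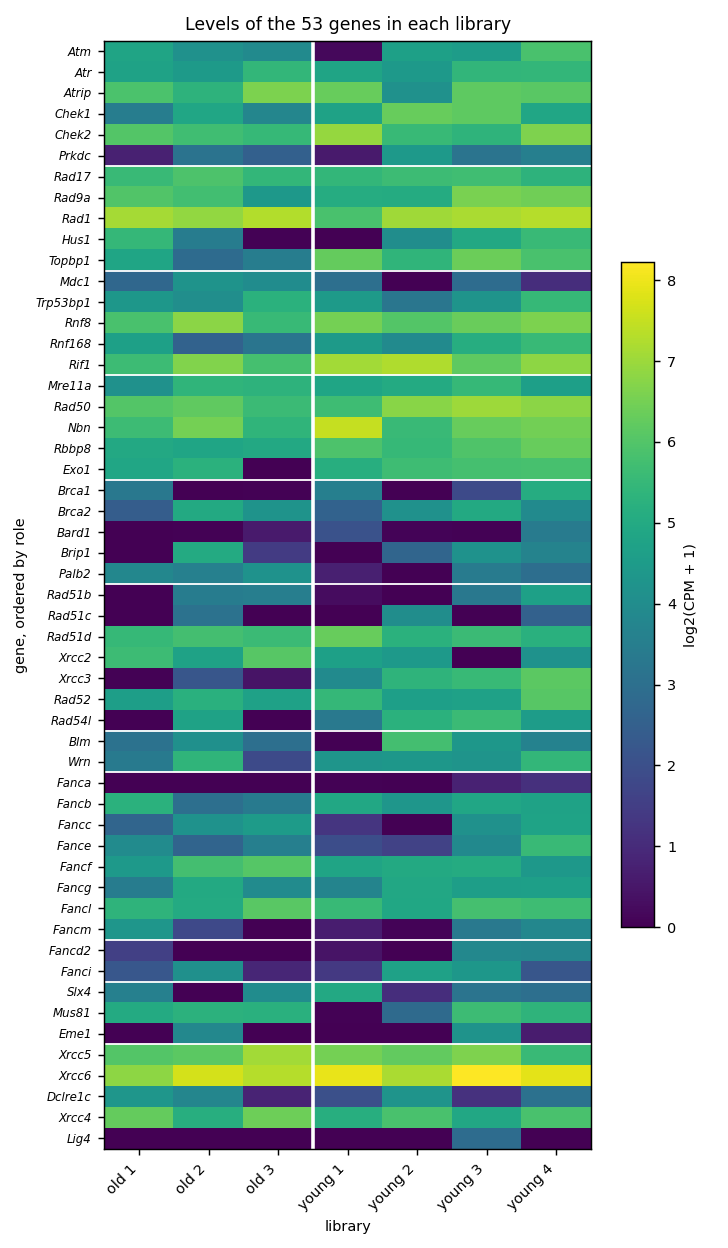
Log2(CPM + 1) of the 53 genes (rows, ordered by role) in the 7 libraries (columns; the white vertical line divides old from young). Xrcc6 and Rad1 are bright in every library, and dark cells, where a gene had next to no counts, are scattered over old and young libraries.

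The helicases and nucleases that take apart joint molecules were detected unevenly. Old libraries had 7.52, 16.6 and 6.95 CPM of Blm, and young libraries 0, 52.97, 19.5 and 11.5 CPM. Blm, the helicase of Bloom syndrome, had no count in young 1 and its highest value in young 2 (log2 fold change -1.02 ± 1.64, adjusted p = 0.970, edgeR; 1.22 with limma-voom). Wrn, the Werner syndrome helicase, ranged over 2.61 to 42.03 CPM (log2 fold change -0.48). For Mus81 the levels were 31.4, 37.7 and 36.3 CPM (old) and 0.0438, 6.12, 48.5 and 39.4 CPM (young). Mus81, a nuclease, held 1 count in young 1 and 0.58 as log2 fold change. Eme1 measured 0, 13.3 and 0 CPM in old and 0, 0, 17.7 and 0.557 CPM in young HSCs. Eme1, the partner of Mus81, was detected above 1 CPM only in old 2 and young 3, with no count in 4 libraries. Slx4, the nuclease scaffold, ranged over 0 to 30.4 CPM with no count in old 2 (log2 fold change -0.44).

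Xrcc6 and Xrcc5, the Ku genes of end joining, had the highest levels per exon length. Per kilobase of exon (GENCODE lengths), Xrcc6 averaged 44.7 CPM over the 7 libraries and Xrcc5 32.3, the 2 highest of the 53, followed by Nbn with 32.2. Xrcc6 and Xrcc5 encode the Ku70 and Ku80 subunits that cap broken ends. Brca1 at 0.921 CPM per kilobase, Prkdc at 0.576, Fancd2 at 0.506 and Bard1 at 0.345 were among the 8 lowest. The end-joining genes Xrcc4, Dclre1c and Lig4 averaged 12.6, 0.955 and 0.180 CPM per kilobase. Xrcc6 held 111.4, 206.4 and 155.8 CPM in the old libraries and 248.4, 144.6, 297.3 and 235.8 CPM in the young. Xrcc5 was at 64.1, 69.96 and 134.2 CPM in the old libraries and at 90.1, 75.6, 98.5 and 46.1 CPM in the young. Xrcc6 was lower on average in old HSCs and Xrcc5 slightly higher, both with overlapping groups (log2 fold change -0.55 ± 0.31, adjusted p = 0.687, edgeR; log2 fold change 0.21 ± 0.39, adjusted p = 0.972, edgeR). The CPM of Xrcc4 were 75.9, 34.6 and 84.4 in old and 34.5, 56.7, 29.7 and 57.003 in young libraries. Xrcc4, the scaffold of the ligase, overlapped as well (log2 fold change 0.55 ± 0.47, adjusted p = 0.891, edgeR). Dclre1c, the nuclease Artemis, ranged over 0.768 to 19.1 CPM (log2 fold change 0.54). Lig4, the ligase itself, had 181 counts in young 3 and 0 in each of the other 6 libraries and was not tested.

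Many members were detected in some libraries and all but missing in others. At least 1 library had no count in 17 of the 51 tested members (33.3%), against 27% of all tested genes. In 20 of the 51 tested members at least 1 library had 3 or fewer counts, against 30.9% of all tested genes, and in 15 of these another library had 500 or more (Atm, Hus1, Mdc1, Exo1, Brca1, Brip1, Rad51b, Xrcc2, Xrcc3, Rad54l, Blm, Fancc, Fancm, Slx4 and Mus81). The latter pattern was thus found in 15 of the 51 tested members, beside 15.6% of all tested genes. Xrcc2 held 1759 counts in old 3 and 0 in young 3, and Exo1 1616 in young 4 and 0 in old 3. The members at 3 or fewer counts numbered 7, 4 and 8 in old 1, old 2 and old 3 and 7, 9, 3 and 0 in young 1, young 2, young 3 and young 4. As shares of the tested members these numbers run from 0.0% (young 4) to 17.6% (young 2), and of all tested genes from 4.35% (young 4) to 16.6% (young 1). The share among members was above that of all genes in 5 of the 7 libraries, all 3 old ones, young 2 and young 3, and below it in young 1 and young 4, a description with no test. Both the fewest and the most such members were thus in young libraries.

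**Figure D5:**
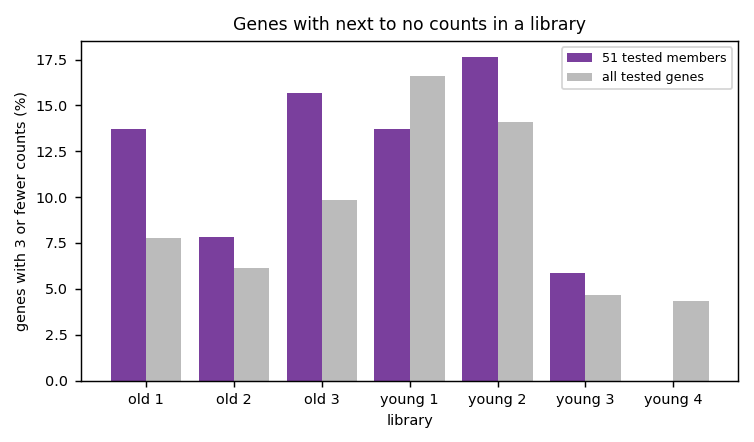
Share of genes with 3 or fewer counts (y axis, percent) in each library (x axis), for the 51 tested members (purple) and all 11506 tested genes (grey). Young 4 has no such member, and young 2 has the most (17.6%).

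Shared sequence limits single values for part of the list. In the GENCODE annotation 19 of the 53 members have exonic bases in common with another gene of the count table, 18 of them with a gene on the opposite strand. Among them are Xrcc3, Rad9a, Xrcc6, Xrcc4, Fancf, Rad54l, Fancd2 and Eme1. The library kit does not mark strand and no source used here names the counting settings, so their values could include or lose reads of the neighbour. Topbp1 and Chek1 share none with any gene of the annotation. Rbbp8 and Palb2 share none with a gene of the table, but each lies over a gene outside it on the opposite strand, an antisense RNA and a pseudogene, so the same limit holds for them.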

How the data were processed

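Polyadenylated RNA of sorted HSCs (3 old and 4 young libraries) was converted to cDNA with Smart-seq+ and made into Nextera XT libraries, per the labels' protocols. Trimmomatic, FastQC, STAR and featureCounts, and the build mm9, are listed in the submitters' processing notes; no source used here gives their versions, the annotation or the strand setting. The authors deposited raw read counts per gene symbol, whole numbers totalling 22203806 to 32401925 per library. The test was edgeR 4.0.16 under R 4.3.3 (filterByExpr with minimum count 10 and total 15, TMM, quasi-likelihood F test on group alone, 2-sided, Benjamini-Hochberg over 11506 genes, threshold 0.05); limma 3.58.1 (voom) and DESeq2 1.42.0 were alternatives, beside other scalings, other filters, a replicate block and each library left out. Each SE was obtained by dividing the size of the log2 fold change by the root of the F statistic. The test was checked on simulated counts for this comparison (11506 genes, 50 changed at each of 4 folds; 3 false among 61 calls). Members, lists and alternatives were chosen with earlier results of these data known. Values in every library are given for the 20 members with the smallest p, the 10 with the highest mean CPM and Atm, Atr, Chek1, Brca1, Brca2, Fanca, Fancd2, Prkdc, Xrcc5 and Xrcc6, and for the 3 genes with the smallest p of the other pathway genes; of the replication and mitosis lists the 3 genes with the smallest p are named. Brip1, Hus1, Fanci, Blm, Mus81, Eme1 and Klc1 were added after their values were seen. The alternative that leaves out young 1 and young 2 together was added after seeing the data. A gene of the other pathway list is counted but not reported here by name. Exon lengths and overlaps came from GENCODE M21 (GRCm38), matched by symbol for 53 of 53 members, and were not used for positions.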

Additional observations from a re-analysis of the deposited data

Results flagged for a closer look

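In the group of 4 young libraries, 4 of 53 members had 1 library far from the other 3. Its gap to the nearest value divided by the whole range was above Dixon's critical value for 4 samples. For normally distributed values chance alone gives about 1 in 20 groups. That rate does not hold for members mostly at or near 0, such as Eme1 and Lig4. Groups of 3 were not examined. Atrip was low in young 2 at 16.9 CPM against 68.9 to 77.7 CPM in the others (ratio 0.856). Wrn was high in young 4 at 42.03 CPM against 18.1 to 19.5 CPM (ratio 0.945). Eme1 was high in young 3 at 17.7 CPM against 0.0 to 0.557 CPM (ratio 0.969). Lig4 was detected in young 3 alone, at 6.54 CPM against 0.0 in the others (ratio 1.0).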

How the results depend on the processing

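The number of members called was 0 in every fit named here other than DESeq2, which called 3 lower. Over all genes, calls numbered 29 and became 591 with DESeq2 (29 shared), 50 with limma-voom (25 shared), 16 with library size alone (16 shared), 49 at an adjusted p under 0.1, 130 among the 4510 genes that average 50 CPM or more (27 shared) and 2 to 18 without 1 library (2 without old 1 or without old 3, 18 without young 2). At 50 CPM or more 11 members were tested, 7 of them below 0. Leaving out young 1 and young 2 together, chosen after seeing the data, left 7 calls. The replicate numbers did not pair the samples (correlations of deviations 0.025, -0.074 and -0.014 for numbers 1 to 3), and each old library correlated better with a young library of another number. With the replicate number as a block 0 genes were called (edgeR; unadjusted p = 0.00993 for Xrcc3 and 0.0154 for Topbp1) and the members' median was -0.17, with Rad54l (-8.50) farther from 0 than Xrcc3 (-6.27); young 4 then carries no weight, since no old library has its number. The median of all tested genes was -0.029, and -0.12 with library size alone; the members' median was negative in all alternatives. Of 51 tested members 25 kept their sign in all alternatives that tested them, Xrcc3, Topbp1, Rbbp8, Chek1, Xrcc2 and Palb2 among them. With limma-voom the sign turned for Fancl (-0.028), Rad51d (0.056), Brip1 (-1.17), Fancm (-0.66), Rad51b (0.19), Brca2 (-0.019), Blm (1.22), Mre11a (-0.018), Atm (0.94). With upper-quartile scaling the sign turned for Mre11a (-0.0024). With library size alone as scaling the sign turned for Fancl (-0.040), Trp53bp1 (-0.067), Brca2 (-0.021), Mre11a (-0.067). With the replicate block the sign turned for Xrcc5 (-0.053), Brip1 (-0.32), Rad51b (0.54), Fance (1.14), Brca2 (-0.046), Mre11a (-0.17), Atm (0.97). With young 1 and young 2 both left out the sign turned for Fancl (-0.15), Rad51d (0.22), Brip1 (-0.40), Rad51c (0.024), Fancm (-0.62), Fancc (-0.53), Rad1 (-0.14), Slx4 (0.20), Mus81 (-0.32), Trp53bp1 (-0.39), Brca2 (-0.38), Mre11a (-0.085), Atrip (-0.11). Without 1 library the sign turned in at least 1 fit for 23 members, whose log2 fold changes ranged over -0.82 to 0.32 (Atm), -0.49 to 0.018 (Atr), -0.26 to 0.38 (Atrip), -0.028 to 0.24 (Rad17), -0.077 to 0.30 (Rad1), -2.23 to 0.24 (Hus1), -0.39 to 0.60 (Trp53bp1), -0.69 to 0.017 (Rnf8), -0.21 to 0.33 (Mre11a), -0.66 to 0.54 (Brca2), -3.38 to 0.94 (Brip1), -0.76 to 1.16 (Rad51b), -0.17 to 0.27 (Rad51d), -1.55 to 0.0077 (Blm), -2.02 to 0.028 (Wrn), -1.04 to 0.72 (Fance), -0.87 to 0.033 (Fancg), -0.32 to 0.27 (Fancl), -2.15 to 1.15 (Fancm), -1.09 to 0.68 (Slx4), -9.91 to 0.54 (Eme1), -0.21 to 0.39 (Xrcc5), -0.15 to 1.49 (Dclre1c). The cause of these turns was not tested. The spread between libraries, a common coefficient of variation of 106%, limits every comparison here.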
